A study of Rattus norvegicus with 12 samples.

Results

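The genes described here encode the rat translation factors: the initiation factors, whose symbols start with Eif and a digit, and the elongation factors, whose symbols start with Eef and a digit, including the kinase gene Eef2k. They were taken by symbol alone, from probe sets that the array annotation ties to exactly 1 gene, and each gene was read from its probe set with the highest mean over all 12 arrays. This gave 60 genes of the 14217 that a probe set with 1 symbol names, and those 60 genes had 93 probe sets among the 31042 tested. A further 5 probe sets that also carry a second symbol, of the Eif2s3, Eif3e and Eif5 genes, were left out. By role, as assigned from the symbols, 39 genes counted as initiation factors and 9 as elongation factors. Another 5 encode regulatory kinases, 4 proteins that bind the cap-binding factor eIF4E, and 3 enzymes that methylate elongation factor 1A.

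RNA came from the arcuate nucleus (ARC), a hypothalamic centre of energy balance that was cut from stained brain sections by laser capture. The animals were male Wistar rats at 3 months of age, with 6 control and 6 recuperated animals and 1 array for each. The dams of control animals received a diet of 20% protein, and control animals were suckled by control dams in litters culled to 8 pups, of which 4 were male. The dams of recuperated animals received 8% protein, and their pups were moved to control dams on postnatal day 3 and suckled in litters of 4 males, and both groups received standard chow after weaning. Maternal diet and litter size therefore differed together between the groups and cannot be told apart. In captured tissue, fewer cells of a type and less RNA per cell cannot be told apart either. Values are log2 expression, on which a difference of 1 is a doubling, and a fold change is the recuperated mean minus the control mean after subtraction of each array's median. The threshold used throughout was that of the study's methods, a 1.3-fold difference with an unadjusted P under 0.05, with P from limma.

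Recuperated array 4 stood farthest apart. The ARC marker list, of which 7 of 8 genes were measured, averaged 3.15 to 3.28 above the array median on the control arrays and 2.92 to 3.31 on 5 recuperated arrays, but 0.60 on recuperated array 4. The list for the neighbouring ventromedial nucleus, 4 of 5 genes measured, averaged 3.07 on that array and between -0.41 and 1.09 on the other 11. Array 4 was also lowest on the tanycyte and ependyma list (-0.075, against 1.155 to 2.27 on the other 11). It was highest on the neuron list (5.24, against 4.125 to 4.60). On the astrocyte list (4.22, against 4.40 to 4.84) and the microglia list (1.16, against 1.36 to 2.06) it was lowest. Its array quality weight in limma, 0.54, was the lowest of the 12. The ARC list was also below every control array on recuperated arrays 2, 5 and 6, and it averaged 3.22 ± 0.04 over the control and 2.67 ± 1.03 over the recuperated animals (SD, n = 6 each; p = 0.0433 by exact permutation, 0.433 after adjustment over 10 marker lists). Without array 4 the recuperated mean was 3.09 ± 0.16 (SD, n = 5; exact permutation p = 0.0758, adjusted 0.379). The oligodendrocyte list averaged 4.17 ± 0.10 in control and 4.10 ± 0.27 in recuperated animals (SD, n = 6 each, exact permutation p = 0.597, adjusted 0.898). Recuperated array 4, at 4.63, was the highest of the 12. Without array 4 the recuperated mean was 3.99 ± 0.09 (SD, n = 5, exact permutation p = 0.0195, adjusted 0.195). Slc6a3, the dopamine transporter gene, was the only ARC gene past the threshold, with a log2 fold change of -0.71 (exact permutation p = 0.0606). It read 4.23 on recuperated array 4 and 5.77 to 6.60 on the other recuperated arrays, and its call without array 4 was not examined. Its probe set was above the array median on 5 of 12 arrays. Pmch, the melanin-concentrating hormone gene, was the only such gene of the list for the paraventricular and other nuclei, with 1.5 (exact permutation p = 0.0974). Sim1 and Crh of that list lay far below the array median. The part of these marker differences in the results on translation factors was not tested. Leaving out array 4 cannot measure it, since that removes all that differs on the array and keeps recuperated arrays 2, 5 and 6. Translation factor results that rest on this array are given with and without it.

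Translation starts when initiation factors load the small ribosomal subunit with the starter transfer RNA and bring it to the capped end of a messenger RNA. Elongation factors then deliver each amino acid and move the ribosome along. Control lies mainly at 3 points: kinases of the Eif2ak family phosphorylate eIF2 and slow initiation under stress, 4E-binding proteins hold eIF4E away from the cap until the mTOR kinase phosphorylates them, and eEF2 kinase phosphorylates eEF2 and slows elongation. In neurons eEF2 kinase is activated by calcium and calmodulin, and it restrains protein synthesis when energy or amino acids run short.

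Among the 60 genes, Eif2d alone passed the threshold, in the direction of higher expression in recuperated animals, and no gene passed it in the lower direction. That is 1.67% of the genes, against 2.47% of all probe sets, with 1.2% of all probe sets higher and 1.27% lower. An unadjusted P under 0.05 was reached by 3 genes, Eif2d, Eif2b1 and Eif3j, which is 5% of them against 3.45% of all probe sets. Without recuperated array 4, Eif2d (0.74) still reached it, but Eif2b1 (-0.28) and Eif3j (-0.23) did not. Eif2ak4 (0.31) reached it only then among these settings. Without median subtraction Eif2b1 and Eif3j also missed it. After Benjamini-Hochberg adjustment over all probe sets no gene was called and the smallest limma adjusted p was 0.999, as it was among all 31042 probe sets. The log2 fold changes ran from -0.36 to 0.62 with a median of -0.05, where the median of all probe sets was -0.03. The fold change was negative for 38 genes and positive for 22, against 56.6% negative over all probe sets.

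The intervals show how much change these arrays left room for. For 23 of the 60 genes (38.3%) the whole 95% limma interval, not adjusted for the number of genes, lay within 1.3-fold in either direction. The share was 19.6% of all probe sets and 22.7% of the brighter ones. Initiation factors gave 17 of 39, elongation factors 4 of 9, regulatory kinases 1 of 5, eIF4E-binding proteins 1 of 4 and modifying enzymes 0 of 3. On the brightest probe set of each translation factor gene, the median SD between animals was 0.21 in control and 0.23 in recuperated arrays. Over all 93 translation factor probe sets it was 0.23 and 0.25. All probe sets tested gave 0.28 and 0.32, and the brighter ones 0.26 and 0.32. No comparison with probe sets of matched signal was made. The 5 classes had median log2 fold changes of -0.02 for initiation, -0.08 for elongation, -0.10 for the regulatory kinases, -0.15 for the eIF4E-binding proteins and -0.16 for the modifying enzymes. Without array median subtraction the initiation median was 0.00 and those of the other classes kept their sign.

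**Figure D1:**
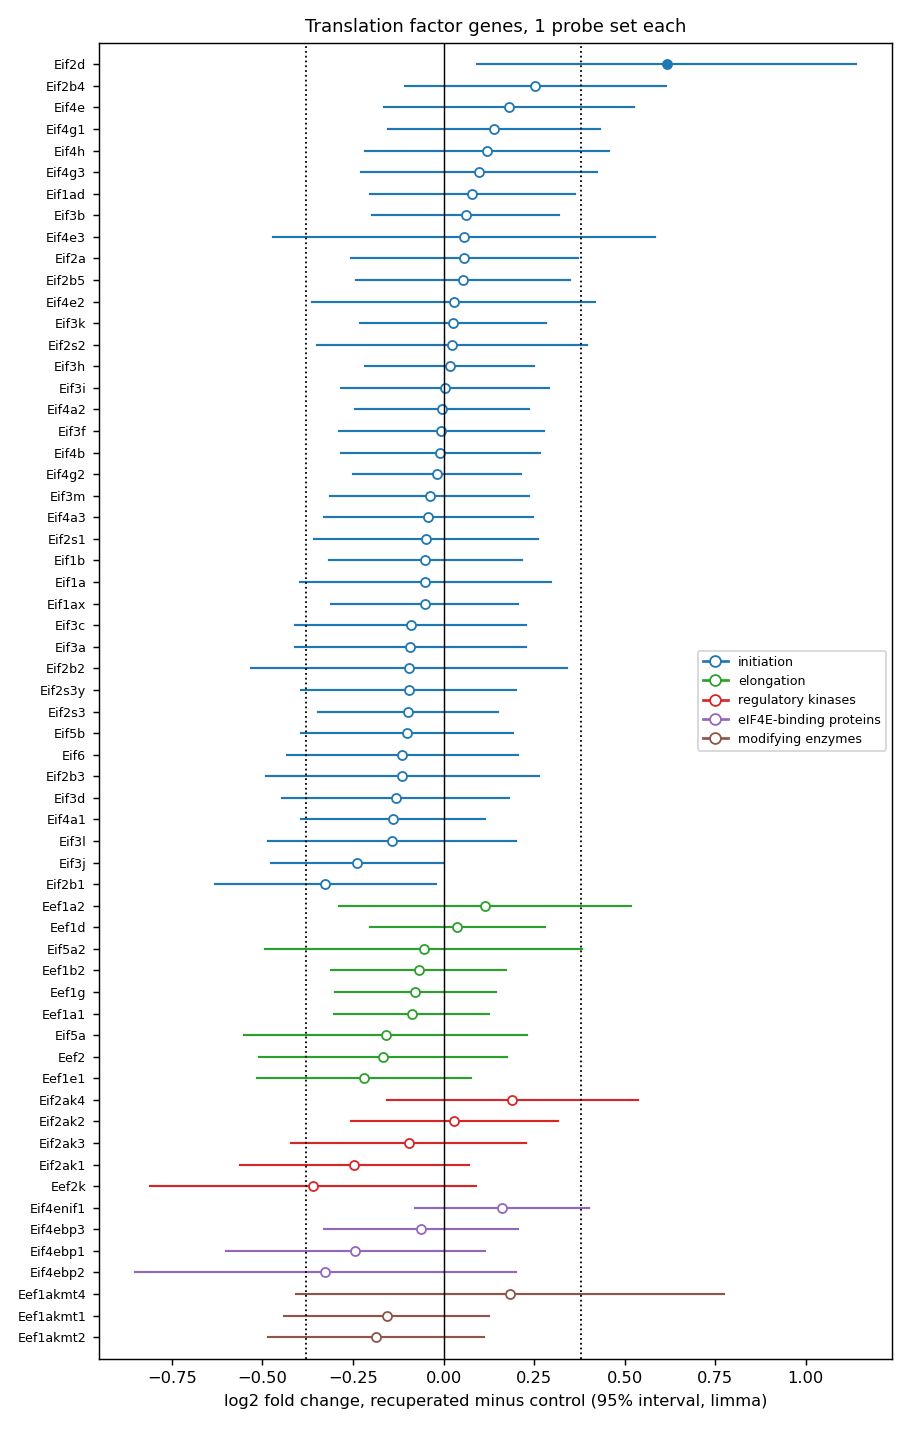
Log2 fold change (recuperated minus control, x axis) of each of the 60 translation factor genes (y axis), coloured by class, with 95% limma intervals, n = 6 arrays a group. Dotted lines mark 1.3-fold in either direction, and the filled point, Eif2d at 0.62, is the only gene past the threshold.

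Eef2k was measured by 4 probe sets, and 1 of them passed the threshold. Differences between the fold changes of the probe sets did not pass a test, as given below. The probe set 1369638_at was lower in recuperated animals, while the other probe sets missed the threshold and one of them, 1389999_at, had a positive fold change. On 1369638_at the control arrays read 5.78, 5.67, 6.27, 5.68, 6.37 and 6.37 and the recuperated arrays 5.76, 5.23, 5.27, 5.36, 4.95 and 5.44. Thus 5 of the 6 recuperated arrays lay below every control array, and recuperated array 1 overlapped them. The log2 fold change was -0.71 (SE 0.18, 95% interval -1.09 to -0.33), which is 1.63-fold lower, with an exact two-sided permutation p of 0.00649 and a limma adjusted p of 0.999. The study chose Eef2k from these same arrays as a gene to measure by RT-PCR, so a difference on them is not independent evidence. The RT-PCR data were not analysed here.

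The brightest Eef2k probe set, 1387658_at, stands for the gene among the 60. Its control arrays read 7.07, 7.29, 7.23, 7.55, 7.14 and 6.52 and its recuperated arrays 6.13, 6.94, 7.07, 6.37, 6.95 and 7.30. Recuperated arrays 1 and 4 lay below all control arrays, and the other 4 fell within the control range. The log2 fold change was -0.36 (SE 0.21, interval -0.81 to 0.09; exact permutation p = 0.141), the most negative value among the 60 genes and short of the threshold. Without control array 6 it was -0.48 and without recuperated array 6 it was -0.46, and both then passed the threshold; without recuperated array 4 it was -0.27.

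The remaining Eef2k probe sets showed groups that overlapped widely. On 1389999_at control arrays ran from 4.82 to 6.65 (median 5.80) and recuperated arrays from 5.48 to 6.53 (median 5.75), with a log2 fold change of 0.16 (interval -0.50 to 0.82; exact permutation p = 0.66). On 1394253_at control arrays ran from 3.99 to 4.79 (median 4.22) and recuperated arrays from 3.77 to 4.69 (median 4.08), with a log2 fold change of -0.18 (interval -0.63 to 0.27; exact permutation p = 0.429). The brightest probe set exceeded the array median on 11 of 12 arrays, 1389999_at and 1369638_at on 3 each, and 1394253_at on 0. Signals of different probe sets also depend on their probes, so these counts do not rank them.

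**Figure D2:**
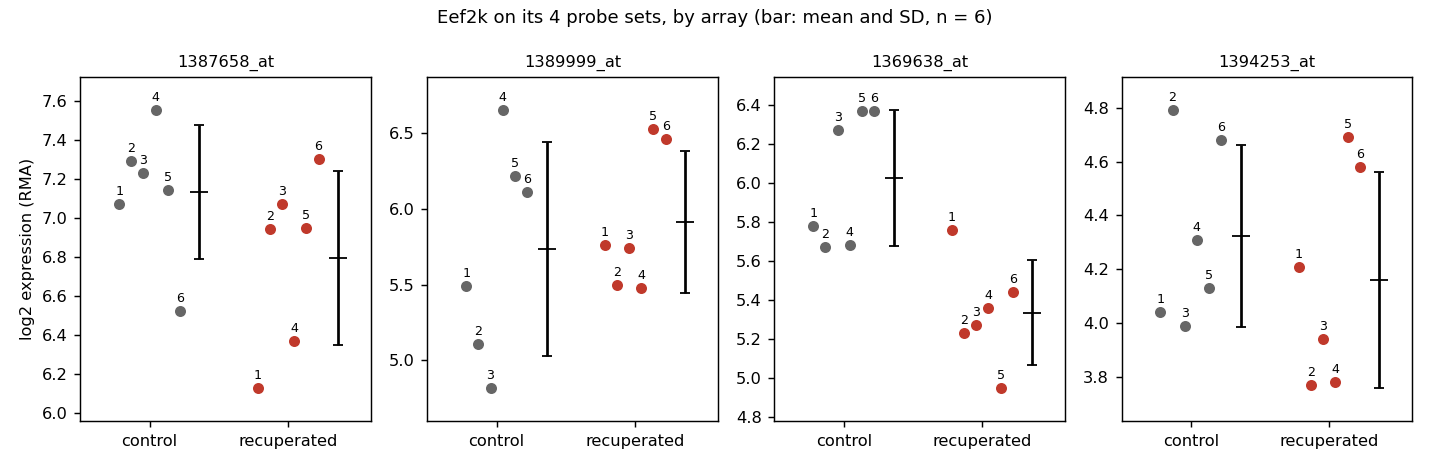
Deposited log2 expression (y axis) of Eef2k on its 4 probe sets, 1 panel each, with a numbered point for every array and a bar marking mean and SD, n = 6 control and 6 recuperated. The groups separate, apart from recuperated array 1, only on 1369638_at, and the y axis differs between panels.

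Of the 24 translation factor genes with more than 1 probe set, Eef2k had the widest gap between the fold changes of its probe sets, 0.87 on the log2 scale against a median gap of 0.23. Such a gap grows with the number of probe sets, and 18 of the 24 genes had only 2; the other genes with 4 were Eif1a, with a gap of 0.45, and Eif4g1, with 0.25. In 15 of the 24 genes the probe sets differed in sign. For Eef2k, the 6 pairwise differences between fold changes were tested by exact permutation, and none passed after Benjamini-Hochberg adjustment over the 6. The widest, 0.87 between 1389999_at and 1369638_at, had p = 0.0584 by exact permutation and an adjusted p of 0.318. The brightest and the lowered probe set differed by 0.35 (exact permutation p = 0.342, adjusted 0.41). From animal to animal, no pair of probe sets gave a correlation that passed its test: over the 12 arrays Pearson's r ran from -0.15 to 0.43 and Spearman's rho from -0.07 to 0.43, with permutation p-values adjusted over the 6 pairs of at least 0.84 and 0.828. Without the 2 arrays farthest from the median of the first probe set of a pair, r ran from -0.12 to 0.41. With each group centred on its own mean, the brightest and the lowered probe set had r = -0.61 and rho = -0.59 (permutation p = 0.0381 and 0.0457, adjusted 0.229 and 0.225), and r fell to -0.22 without the 2 farthest arrays.

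The lowered probe set kept its call with any 1 array left out. Leaving out each array in turn moved 1369638_at between -0.80 and -0.63 and it passed the threshold each time, with -0.71 without recuperated array 4. The brightest ranged from -0.475 to -0.231, 1394253_at from -0.30 to -0.09, and 1389999_at from -0.03 to 0.34, its sign turning without control array 3. A filter that keeps a probe set only where 6 or more arrays exceed their median leaves the brightest as the one Eef2k probe set tested.

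**Figure D3:**
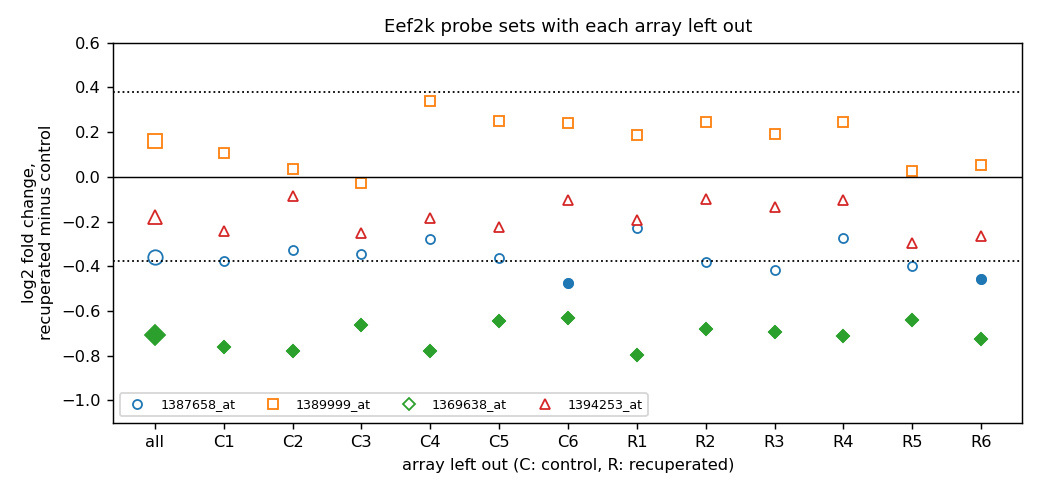
Log2 fold change (y axis) of the 4 Eef2k probe sets with all arrays (left, large symbols) and with each array left out in turn (x axis; C control, R recuperated). Filled symbols passed the threshold and open ones missed it; dotted lines mark 1.3-fold, and 1369638_at stays between -0.80 and -0.63.

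The other regulatory kinases are the eIF2 alpha kinases, each tied to a different stress, and none of the 4 passed the threshold. Eif2ak1, the heme-regulated kinase, ran from 7.77 to 8.57 in control (median 8.08) and from 7.63 to 8.10 in recuperated arrays (median 7.95), with a log2 fold change of -0.25 (interval -0.56 to 0.07; exact permutation p = 0.106). Its second probe set had a positive fold change, 0.13. Eif2ak4, which encodes GCN2, the sensor of uncharged transfer RNA when amino acids are short, ran from 6.72 to 7.30 in control (median 7.08) and from 6.67 to 7.47 in recuperated arrays (median 7.42). There 4 of 6 recuperated arrays lay above every control array, but array 4 was the lowest of all 12, and the log2 fold change was 0.19 (interval -0.16 to 0.54; exact permutation p = 0.271). Without recuperated array 4 it was 0.31, still under 1.3-fold. Eif2ak2, the kinase PKR that responds to double-stranded RNA, gave 0.03 (exact permutation p = 0.803) and its interval lay within 1.3-fold. Eif2ak3, the endoplasmic reticulum kinase PERK, gave -0.10 (exact permutation p = 0.532).

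Eif2d encodes a factor that can place the starter transfer RNA on the ribosome without eIF2 and takes part in recycling of ribosomal subunits; its symbol puts it with the eIF2 genes, but it is no eIF2 subunit. Control arrays read 5.73, 6.36, 6.17, 5.83, 6.48 and 5.56 and recuperated arrays 6.96, 6.63, 7.44, 6.04, 6.83 and 6.05. The 4 recuperated arrays 1, 2, 3 and 5 lay above all control arrays, and arrays 4 and 6 fell inside the control range. Eif2d was 1.53-fold higher, a log2 fold change of 0.62 (SE 0.24, interval 0.09 to 1.14), with an exact permutation p of 0.0498 and a limma adjusted p of 0.999. Its probe set was above the array median on 6 of 12 arrays. The change was 0.74 without recuperated array 4, and the call was lost without control array 1 or 6 or without recuperated array 1 or 3, with values down to 0.46. Denr, whose product works in the same kind of pathway, gave 0.01 (exact permutation p = 0.957).

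None of the genes for subunits of eIF2 itself passed. Eif2s3, a gamma subunit gene, had the smallest P among them at -0.10 (7.54 ± 0.16 in control and 7.46 ± 0.11 in recuperated, SD, n = 6 each; exact permutation p = 0.277). The guanine nucleotide exchange factor eIF2B, which reloads eIF2 and is what phosphorylated eIF2 blocks, has 5 subunits, and their fold changes pointed both ways. Eif2b1, the alpha subunit, ran from 7.28 to 7.78 in control (median 7.45) and from 6.81 to 7.53 in recuperated arrays (median 7.12), with 4 of 6 recuperated arrays below all control arrays. Its log2 fold change of -0.33 (SE 0.14, interval -0.63 to -0.02; exact permutation p = 0.0346) missed the 1.3-fold limit. Without recuperated array 3 it was -0.38 and without recuperated array 6 it was -0.40, and both passed. Without recuperated array 4 it was -0.28, and without median subtraction it was -0.31. In both of these the unadjusted P of Eif2b1 was no longer under 0.05. Eif2b4, the delta subunit, gave 0.25 (7.78 ± 0.20 and 8.06 ± 0.37, SD, n = 6; exact permutation p = 0.165).

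**Figure D4:**
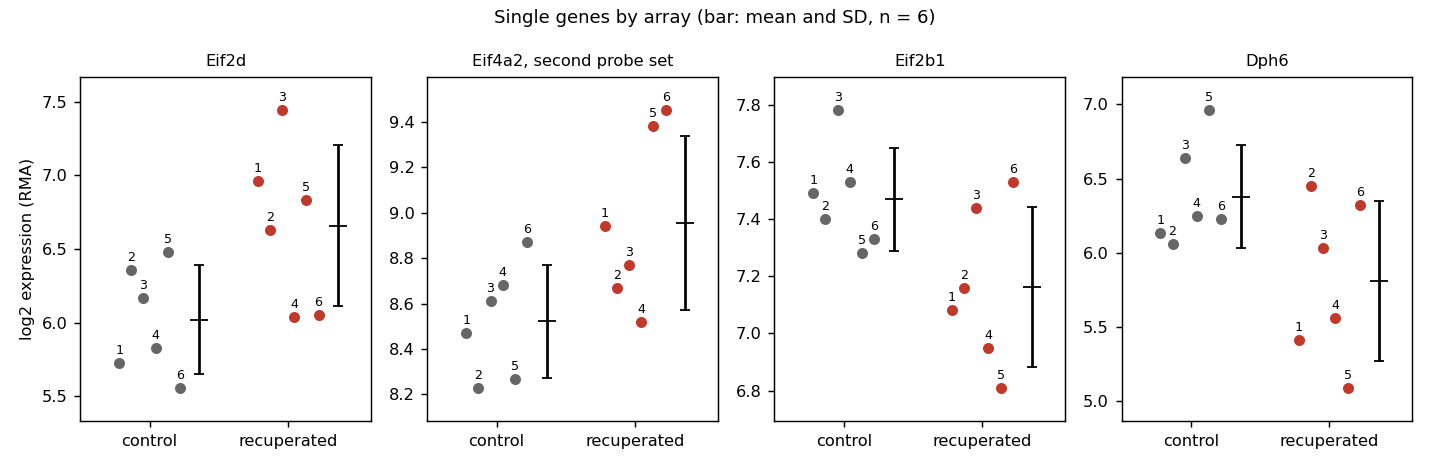
Deposited log2 expression (y axis) of Eif2d, the second Eif4a2 probe set, Eif2b1 and the eEF2-modifying gene Dph6 on each numbered array; the bar marks mean and SD, n = 6 control and 6 recuperated. At least 1 recuperated array lies within the control range in every panel, and the y axis differs between panels.

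The eIF3 complex, the scaffold that joins the small subunit to the messenger RNA, was read through 11 genes with log2 fold changes from -0.24 to 0.06. None passed the threshold, and 6 had intervals within 1.3-fold. Eif3j, a loosely bound subunit, ran from 10.19 to 10.60 in control (median 10.33) and from 9.97 to 10.28 in recuperated arrays (median 10.13), with a log2 fold change of -0.24 (SE 0.11). Its spread between animals was small, so the exact permutation p reached 0.00649 although the difference was under 1.3-fold. Without recuperated array 4 the change was -0.23, and without median subtraction it was -0.22. In both of these the unadjusted limma P of Eif3j was no longer under 0.05. The other Eif3j probe set gave -0.09. Eif3d, the subunit that can itself bind a cap, gave -0.13 (10.45 ± 0.22 and 10.33 ± 0.26, SD, n = 6; exact permutation p = 0.344).

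The 11 genes placed in the eIF4 group by symbol ranged from -0.14 to 0.18 with a median of 0.03. Eif4e, the cap-binding protein, gave 0.18 (9.79 ± 0.26 and 9.99 ± 0.28, SD, n = 6; exact permutation p = 0.281), and the helicase gene Eif4a1 gave -0.14 (9.46 ± 0.18 and 9.34 ± 0.15; exact permutation p = 0.154). Eif4a2, the helicase form that predominates in brain, was read at 12.08 ± 0.14 in control and 12.10 ± 0.12 in recuperated arrays (SD, n = 6), a difference of -0.01 after median subtraction. Its second probe set 1397697_at, named here after its values were seen, passed the threshold in the higher direction. Control arrays ran from 8.23 to 8.87 (median 8.54) and recuperated arrays from 8.52 to 9.45 (median 8.86), a log2 fold change of 0.41 (SE 0.19; exact permutation p = 0.0649). That call was lost in the methods' t-test and on leaving out 7 of the 12 arrays in turn. Counted over all 93 probe sets, 3 passed, 1 lower for Eef2k and 2 higher for Eif2d and Eif4a2. That is 3.23% of them, against 2.47% of all probe sets.

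The smaller initiation groups gave no call. Among the 4 genes placed in the eIF1 group by symbol, Eif1ad gave 0.08 and Eif1ax -0.05, and 3 of the 4 had intervals within 1.3-fold. Eif6, which keeps the large subunit from joining too early, gave -0.11 (exact permutation p = 0.431), and Eif5b, which helps the subunits join, gave -0.10 (exact permutation p = 0.448).

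None of the 9 elongation factors passed the threshold, and their median SD between animals was 0.16 in control and 0.19 in recuperated arrays. Of the 9 fold changes, 7 were negative (77.8%, against 56.6% of all probe sets), and the range was -0.22 to 0.12. The sign depended on the probe set for Eef1g, Eef2 and Eif5a2, whose second probe sets gave 0.23, 0.05 and 0.27. Second probe sets of Eef1a1 (-0.03) and Eef1a2 (0.09) kept the sign. Those of Eef1g, Eef2 and Eef1a2 were above the array median on 0 of 12 arrays. Eef1a1, which brings aminoacyl transfer RNA to the ribosome, stood at 12.68 ± 0.07 in control and 12.61 ± 0.08 in recuperated arrays (SD, n = 6), a log2 fold change of -0.09 (exact permutation p = 0.102), and at -0.06 without recuperated array 4. Eef1a2, its neuronal and muscle form, gave 0.12 (7.72 ± 0.36 and 7.86 ± 0.28; exact permutation p = 0.569). The exchange factor genes that recharge eEF1A gave -0.07 for Eef1b2 (exact permutation p = 0.396), 0.04 for Eef1d (p = 0.643, exact permutation) and -0.08 for Eef1g (p = 0.223, exact permutation). With Eef1a1 these are the 4 elongation genes whose intervals lay within 1.3-fold.

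Eef2, whose product moves the ribosome along and is the substrate of eEF2 kinase, ran from 11.49 to 11.93 in control (median 11.70) and from 11.22 to 11.93 in recuperated arrays (median 11.56). The groups overlapped, and the log2 fold change was -0.17 (interval -0.51 to 0.18; exact permutation p = 0.303). Eef1e1, a scaffold protein of the aminoacyl transfer RNA synthetase complex, gave -0.22 (8.88 ± 0.25 and 8.68 ± 0.20, SD, n = 6; exact permutation p = 0.117). The genes of eIF5A, which frees ribosomes that stall on difficult sequences, gave -0.16 for Eif5a (exact permutation p = 0.426) and -0.06 for Eif5a2 (exact permutation p = 0.799). Phosphorylation of eEF2, the readout of eEF2 kinase activity, was not measured by these arrays.

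Many messenger RNAs of the translation machinery begin with a run of pyrimidines, the terminal oligopyrimidine tract, through which mTOR signalling controls their translation. RefSeq transcript starts on the GRCr8 build were found for 55 of the 60 genes, and the sense strand was searched from 20 bases before to 20 bases after each annotated start for at least 8 C or T in a row. Such a run was held by 15 of 55 translation factor genes (27.3%), against 14.9% of the 11700 genes with a probe set of 1 symbol that were found there. Elongation factors held it in 4 of 8, initiation factors in 9 of 36 and modifying enzymes in 2 of 3, and no regulatory kinase (0 of 5) or eIF4E-binding protein (0 of 3) held one. The windows of 30 bases below show the runs of the 4 elongation genes and of Eif3f, followed by the same kind of window for Eef2k and Eif2d, on which the expression results turn and whose longest run within the searched bases was 4. Each window is placed around its run, so that of Eef2k, from base -33 to base -4, and that of Eef2, from -30 to -1, end before the annotated start. The Eef2k run reaches the edge of the searched bases. The Eef1g run, which starts at base -20, also ends before the annotated start. So do runs of other genes among the 15, such as Eif3d. They read 5′ to 3′ on the sense strand, with the longest C or T run in capitals, and lie at chr8:88225053-88225082 (minus) for Eef1a1, chr9:72074086-72074115 (plus) for Eef1b2, chr1:215289786-215289815 (plus) for Eef1g, chr7:9189239-9189268 (minus) for Eef2, chr1:172369058-172369087 (plus) for Eif3f, chr1:184824387-184824416 (plus) for Eef2k and chr13:45168162-45168191 (plus) for Eif2d.
Eef1a1: gccttggacgTTCTTTTTCgcaacgggttt
Eef1b2: gtcccggCCCTTTTTCTCCCTCagcgctgg
Eef1g: acagccccaCCCCCTTTCTCTgcggaatca
Eef2: gacgtcagcggTCTCTTCCgccgcagccgc
Eif3f: cgttctagCCTCTCTCTTTCTCggcaagat
Eef2k: ctctggtcccagcCTCCggctccaacccca
Eif2d: cggcgtgcgtcagTTCCgggactaggaccg
The longest run was 15 bases in Eef1b2, 14 in Eif3f, 12 in Eef1g, 9 in Eef1a1 and 8 in Eef2, and a run found this way is a description of letters near an annotated start, not a tract shown to act. The 15 genes that held a run had log2 fold changes from -0.19 to 0.12 with a median of -0.08, and the other 40 a median of -0.05.

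The eIF4E-binding proteins gave no call. Eif4ebp2, the form most abundant in brain, varied most, from 7.59 to 9.18 in control (median 8.64) and from 7.67 to 8.55 in recuperated arrays (median 8.29), with a log2 fold change of -0.33 (interval -0.85 to 0.20; exact permutation p = 0.258). Control array 5 held its lowest value, and without that array the change was -0.52 and passed the threshold. Eif4ebp1 gave -0.24 (6.35 ± 0.39 and 6.12 ± 0.15, SD, n = 6; exact permutation p = 0.18) and Eif4ebp3 -0.06 (exact permutation p = 0.539). Eif4enif1, which carries eIF4E into the nucleus, gave 0.16 (7.17 ± 0.13 and 7.35 ± 0.15; exact permutation p = 0.0649). Among the methyltransferases of elongation factor 1A, Eef1akmt2 gave -0.19 (exact permutation p = 0.19) and Eef1akmt1 -0.16 (exact permutation p = 0.214).

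The signalling genes around the factors were described through a list of 61 symbols, of which 52 were named by a probe set with 1 symbol. No gene of the list passed in the higher direction and Dph6 alone in the lower direction, 1.92% of them against 2.47% of all probe sets. The median log2 fold change was -0.01, with 25 positive and 27 negative, and 16 intervals lay within 1.3-fold. Dph6 encodes an enzyme in the synthesis of diphthamide, the modified histidine of eEF2. Control arrays read 6.13, 6.06, 6.64, 6.25, 6.96 and 6.23 and recuperated arrays 5.41, 6.45, 6.03, 5.56, 5.09 and 6.32. Recuperated arrays 1, 3, 4 and 5 lay below all control arrays, and arrays 2 and 6 did not. The log2 fold change was -0.59 (SE 0.23, interval -1.08 to -0.09), 1.5-fold lower, with an exact permutation p of 0.0541 and a limma adjusted p of 0.999. The Dph6 probe set was above the array median on 5 of 12 arrays, and the call was lost with array quality weights (-0.38), without control array 5 and without recuperated array 1 or 5, and the change was -0.54 without recuperated array 4. The enzymes of the same synthesis that were measured, Dph2, Dph3 and Dph5, gave -0.03, 0.01 and 0.14.

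The mTOR branch had 11 measured genes with a median log2 fold change of 0.03 and no call. Its smallest P was that of Mlst8, a core mTOR subunit, at 0.27 (6.78 ± 0.24 and 7.07 ± 0.35, SD, n = 6; exact permutation p = 0.134). In the MAP kinase and cap control group (7 genes) Rps6ka3, a ribosomal S6 kinase, gave 0.28 with a recuperated SD of 0.93 (exact permutation p = 0.502), and without recuperated array 1 it was 0.57 and passed the threshold. In the stress response group (9 genes) Dnajc3, an inhibitor of eIF2 kinases, gave -0.20 (exact permutation p = 0.221). For poly(A) tail and scanning (8 genes) Paip1, which links the poly(A)-binding protein to initiation, gave -0.23 (8.38 ± 0.16 and 8.18 ± 0.17; exact permutation p = 0.0325), with all 6 recuperated arrays below the control mean. For termination and recycling (7 genes) Etf1, the release factor that reads stop codons, gave 0.20 (exact permutation p = 0.128). After median subtraction all 6 recuperated arrays lay above the control mean of Etf1, while the deposited value of recuperated array 5 lay just below it.

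To rank the arrays across animals, array medians were subtracted first. Recuperated array 4 carried the lowest value of the 12 for 16 of the 60 translation factor genes (26.7%), against 14.6% of all probe sets. It carried the highest for 2 (3.33%, against 13% of all probe sets). Its genes lay on average 0.12 below their 12-array means. Recuperated array 5 was lowest for 11 genes (18.3%, against 11.4%). Array 4 is the one set apart on the ARC and ventromedial lists and on the tanycyte, neuron and glial lists. The part of these marker differences in the class medians was not tested. Leaving array 4 out shows only how far the medians rest on that array. The median of the 60 genes was then -0.03, that of the elongation factors -0.06, the regulatory kinases -0.04, the eIF4E-binding proteins -0.11 and the modifying enzymes -0.15, with Eif2d again the only gene past the threshold.

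**Figure D5:**
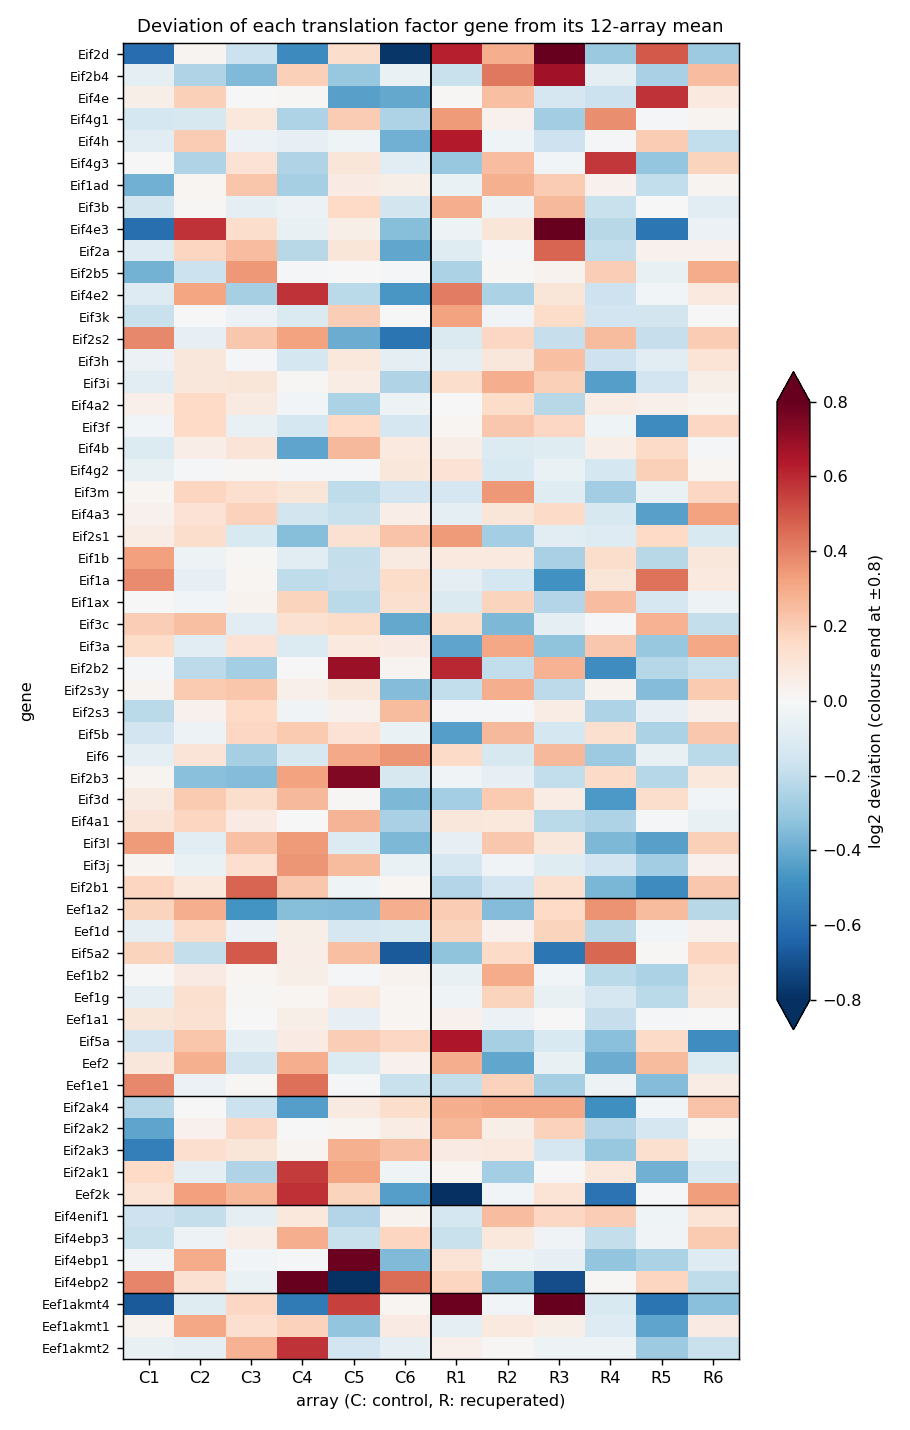
Deviation of the deposited log2 values of each of the 60 translation factor genes (rows, by class and fold change) from their 12-array mean. Columns are arrays (C control, R recuperated), and colours end at 0.8 in either direction. With array medians subtracted, which the plotted values are not, recuperated array 4 is lowest for 16 genes. Eif2d is high on recuperated arrays 1, 2, 3 and 5.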

How the data were processed

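Log2 expression of 31099 probe sets, as the authors deposited it in 1 table, was used, from 12 Affymetrix Rat Genome 230 2.0 arrays, 1 animal each. The submitters' processing notes name RMA (background correction, quantile normalisation, median polish) and Affymetrix Expression Console, whereas the methods describe RMA in GeneSpring GX 12.0. GC-RMA and GCOS values were not analysed here. RNA was amplified before hybridisation, which can alter levels of rare transcripts. Arrays give no read depth, and their number limits the precision.

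The 57 Affymetrix control probe sets were set aside and each array's median subtracted, since the methods centre each chip. Groups were taken from the labels and compared with limma 3.58.1 in R 4.3.3 (lmFit and eBayes, no covariates), with Benjamini-Hochberg adjustment over 31042 probe sets and the threshold of the methods, 1.3-fold and P under 0.05. Single values were compared by exact two-sided permutation over 924 arrangements, whose smallest p is 0.00216, and correlations by 100000 permutations. Means ± SD are of deposited values; fold changes are of median-subtracted values. The fit was tested on simulated data. Tables and plots were made in Python 3.11.15 with matplotlib 3.10.9, pandas 2.3.3, scipy 1.17.1 and numpy 2.4.6.

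The members, the pathway list and the marker lists were chosen with earlier results of these data known. The genes named were all Eef2k probe sets, all elongation factors, regulatory kinases and eIF4E-binding proteins, the 2 members with the smallest P in each initiation complex and among the modifying enzymes, every gene past the threshold and the gene with the smallest P in each pathway group. The second Eif4a2 probe set, the second probe sets of elongation factors, Denr, Dph2, Dph3, Dph5, Eif1a, Eif4g1 and Eif3f were named after their values were seen. The pathway list included Gcn1 under 2 symbols. Alternatives were leaving out each array in turn, array quality weights, no median subtraction, the methods' t-test, quantile normalisation, a block for the animal number, the mean of a gene's probe sets, linear means and dropping dim probe sets. Probe sequences and protein sequences were not analysed here. The study counts litters as n for the arrays, so p-values measure the spread between animals of different litters. Marker lists without recuperated array 4 were added after seeing the data.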

Additional observations from a re-analysis of the deposited data

Results flagged for a closer look

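Of 84 groups of 6 arrays examined among the genes named, 4 held 1 array far from the rest of its group, where chance flags about 1 in 20 groups. For Eef1a1, recuperated array 4 read 12.46 and the other recuperated arrays 12.60 to 12.68. This array is also the one set apart on the ARC, ventromedial, tanycyte, neuron and glial marker lists. For Eif2ak2, control array 1 read 7.19 against 7.61 to 7.78 on the other control arrays. For Eif2ak3, the same array read 5.70 against 6.27 to 6.53. For Eef1akmt1, recuperated array 5 read 7.57 against 7.89 to 8.07.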

How the results depend on the processing

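The array number limits precision: across all alternatives no translation factor gene was called at an adjusted p under 0.05. The translation factor counts of 1 higher and 0 lower were the same under every alternative that kept all arrays. On leaving out each array in turn, the higher count ran from 0 to 1 (Eif2d was lost without array 1 or 6 of the controls or array 1 or 3 of the recuperated animals) and the lower count from 0 to 2, being 1 without control array 5 (Eif4ebp2), control array 6 (Eef2k) or recuperated array 3 (Eif2b1) and 2 without recuperated array 6 (Eif2b1 and Eef2k); the brightest Eef2k probe set ran from -0.475 to -0.231. In the pathway list the lower count, 1, was 0 with the filter on dim probe sets, which drops Dph6, and 0 with array quality weights; with arrays left out it ran from 0 to 1, and the higher count from 0 to 1. Over all probe sets, 371 higher and 395 lower became 118 and 150 with the filter, which tests fewer probe sets, 243 and 263 in the methods' t-test, 434 and 302 without median subtraction, 447 and 313 after quantile normalisation, and 501 and 519 with array quality weights. With arrays left out the higher count ran from 342 to 476, the lower from 352 to 622 (622 without recuperated array 1), and the number past an adjusted p of 0.05 from 0 to 1 (1 without recuperated array 2); with all arrays limma called 0, with 1071 at an unadjusted P under 0.05 and 1063 in the methods' t-test. Control and recuperated animals share numbers in the labels. Same-numbered arrays correlated between -0.16 and 0.08, and 0 of 6 best with their own number. These correlations cannot tell whether same-numbered animals were handled together. With the animal number as a replicate block, 452 probe sets were higher and 411 lower, the translation factor and pathway counts did not change, and Eef2k 1369638_at was -0.71 and past the threshold. The signs of 4 uncalled values turned under at least 1 alternative: Eef2k 1389999_at, Eif2ak2, Eif4ebp3 and Eif5a2. The causes of these shifts were not tested.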
